A study of Mus musculus with 10 samples.

Results

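The 37 genes described here encode the proteins that pass a signal from the T cell receptor to the first branch points of T cell activation. They were taken by symbol from a list that was chosen with earlier results of these data known. Each of the 37 symbols was found once among the 53656 genes of every count table. They were divided by role into 5 genes of the receptor complex and its coreceptor, 6 kinases, 11 adaptors, 6 phosphatases and phosphatase-family proteins, and 9 effectors that act directly after the adaptors.

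The groups compared were 6 libraries of TOX KO cells and 4 libraries of TOX WT cells. Both were SMARTA CD4 T cells, which carry a transgenic T cell receptor for a viral peptide presented by MHC class II. Naive KO cells marked Ly5.1 and WT cells marked Ly5.12 were given to B6 mice that carried the melanoma line B16-GP61 and had been treated with cytoxan, a lymphocyte-depleting drug. Cells were sorted 11 days later from the tumour-draining lymph node (tdLN). The KO libraries came from CD4+ Ly5.1+ Ly5.2- cells that were PD1lo, LAG3lo and CD39lo, and the WT libraries from CD4+ Ly5.1+ Ly5.2+ cells that were PD1hi, LAG3hi and CD39hi. Genotype, sort gate and congenic marker therefore changed together and cannot be told apart in any comparison of KO with WT. The labels name no Tox allele, and they do not tie libraries to animals, so p-values measure the spread between libraries, which may be partly technical.

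The T cell receptor has no enzyme of its own. On contact with peptide and MHC, LCK, brought in by the CD4 coreceptor, phosphorylates the CD3 and CD247 chains, ZAP70 docks there and phosphorylates the adaptors LAT and LCP2 (SLP-76), and these assemble PLCG1, VAV1 and GRB2 at the membrane. CSK, PTPN6, PTPN22 and the UBASH3 proteins restrain the chain, whereas the receptor phosphatase CD45, encoded by Ptprc, removes the inhibitory phosphate of LCK. TOX is an HMG-box nuclear factor known for its role in thymic CD4 lineage development and in chronically stimulated T cells.

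Depth was 36028980 to 55784453 counts in KO libraries and 31939816 to 45481478 in WT libraries. Tox was at 15.3 to 68.0 CPM (counts scaled to the same library size) in KO and 169.9 to 357 CPM in WT (log2 KO/WT, the log2 fold change, of -2.93 with standard error, SE, of 0.48, edgeR adjusted p = 0.0102), and whether these counts cover the deleted part of the gene was not tested. Transcript of the gate gene Pdcd1 was lower in every KO library, at 326 to 515 CPM against 812 to 1564 CPM in WT (edgeR adjusted p = 0.0163). The other gate genes did not pass the test and differed in sign. Lag3 had 83.4 to 427 CPM in KO, and WT replicates 1 to 4 had 320, 7.53, 36.2 and 8.96 CPM (log2 KO/WT of 1.15, adjusted p = 0.589), so within library numbers 4 to 8 its transcript was higher in every KO library, against its LAG3lo gate. Entpd1, the CD39 gene, had 0.0284 to 18.4 CPM in KO and 15.6 to 139 CPM in WT (log2 KO/WT of -3.48, adjusted p = 0.206). Libraries also differed by the number in their library name. KO replicates 1 to 3 and WT replicate 1, with library numbers 1 to 3, stood apart from KO replicates 4 to 6 and WT replicates 2 to 4, with numbers 4 to 8, and had 14365 to 15873 genes detected against 16348 to 19775. Summed markers of B and myeloid cells were higher in WT. The 13 B and plasma cell markers summed to 1004 to 1571 CPM in KO and 7443 to 65374 CPM in WT, and 9 of the 13 were higher in every WT library than in any KO library. The 13 myeloid and dendritic cell markers summed to 3.12 to 224 CPM in KO, where Clec9a was at 0, and 1028 to 7022 CPM in WT, and 3 of the 13 did not overlap. The 7 CD8 T and NK cell markers summed to 211 to 321 CPM in KO and 105 to 185 CPM in WT. Most of the KO sum was Klrb1c, at 167 to 273 CPM in KO and 8.17 to 56.9 CPM in WT, whereas Eomes was lower in every KO library, at 0 to 0.812 CPM against 1.80 to 6.74 CPM in WT. The 5 melanoma markers summed to 2.50 to 6.17 CPM in KO and 0 to 6.93 CPM in WT. The 9 CD4 T cell markers, Cd3e and Trac among them, were detected in both genotypes and summed to 16108 to 31325 CPM in KO, against 22053, 15461, 9322 and 13849 CPM in WT. Cd3d, Cd3e, Cd3g, Cd247 and Cd4 are both markers here and members of the list described, so the sum is not independent of the results below. WT replicates 2 to 4 lay below every KO library in this sum. Among its genes, only Cd3e, Cd247 and Trac showed this, and the others overlapped. Cd2 was at 1259 and 1160 CPM in WT replicates 2 and 4 and 910 to 1383 CPM in KO. Cd4 was at 1337 to 1657 CPM in WT replicates 2 to 4 and 876 to 1828 CPM in KO. The part of these sources in the results below was not tested.

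As a whole, the signalling genes took 2.13 to 2.44% of all counts in KO libraries (mean 2.30 ± 0.103%, SD, n = 6) and 1.39 to 1.97% in WT libraries (mean 1.63 ± 0.267%, SD, n = 4). Every KO library lay above every WT library in this share. The total includes immunoglobulin genes, which took 0.0902 to 0.194% of all counts in KO libraries and 0.824 to 17.1% in WT libraries. Their part in the difference of the shares was not tested. In bulk libraries, fewer cells of a type and less RNA per cell cannot be told apart. KO was then compared with WT gene by gene with edgeR's quasi-likelihood test over 14214 genes, using CPM scaled by TMM, and all p-values were adjusted by Benjamini-Hochberg. All 37 members passed the filter on low counts. None of the 37 was called higher in KO at an adjusted p under 0.05, against 0.429% of all genes tested, and none was called lower, against 2.7%. At an unadjusted p under 0.05, 7 members were higher, against 7.15% of all genes, and 2 were lower, against 10.8%. DESeq2 called 3 members higher, against 4.31% of all genes, and 2 lower, against 7.03%, and limma-voom with quality weights called 12 higher, against 18%, and 5 lower, against 19.5%.

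In KO against WT, 25 of 37 had a log2 fold change above 0, against 45.7% of all genes tested, and the median was 0.44, against -0.12 over all genes. Medians were 0.68 for the receptor complex, with 5 of 5 above 0, 0.93 for the kinases, with 5 of 6, -0.02 for the adaptors, with 5 of 11, -0.43 for the phosphatases, with 1 of 6, and 1.00 for the effectors, with 9 of 9. This order is a description of the list with no test. Each library was also scaled to 5 T cell genes outside the list, Trac, Trbc2, Cd2, Cd28 and Bcl11b. This shifted the log2 fold changes of all genes tested by a median of -0.82. Of the 37 members, 13 then lay above 0, with a median of -0.30 against -0.92 over all genes. The counts of the 5 genes were summed, so Trac and Trbc2, with KO means of 7938 and 6979 CPM, outweighed Cd2 and Cd28, with 1132 and 271 CPM. Log2 KO/WT with TMM was 0.89 for Trac, 0.85 for Trbc2, -0.11 for Cd2 and 0.23 for Cd28. That scaling called none of the members higher, against 0.0563% of all genes, and 2 lower, Ptprc and Ptprj, against 9.48%. Leaving out WT replicate 1 gave 5 members called higher, Cd3e, Cd247, Lck, Zap70 and Lat, against 2.92% of all genes, and 1 called lower, Ptprc, against 7.9%. WT replicate 1 is the lone WT library with a number of 1 to 3, so without it library set is partly mixed with genotype. This limit holds for every result below without WT replicate 1. Orai1, Grb2 and Fyn, which split by library number, then had log2 fold changes of 5.98, 2.74 and 2.33. Within library numbers 4 to 8 they had 1.68, -0.84 and -0.16. Leaving out WT replicate 2 gave 1 member called higher, Lck, against 0.0955%.

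**Figure D1:**
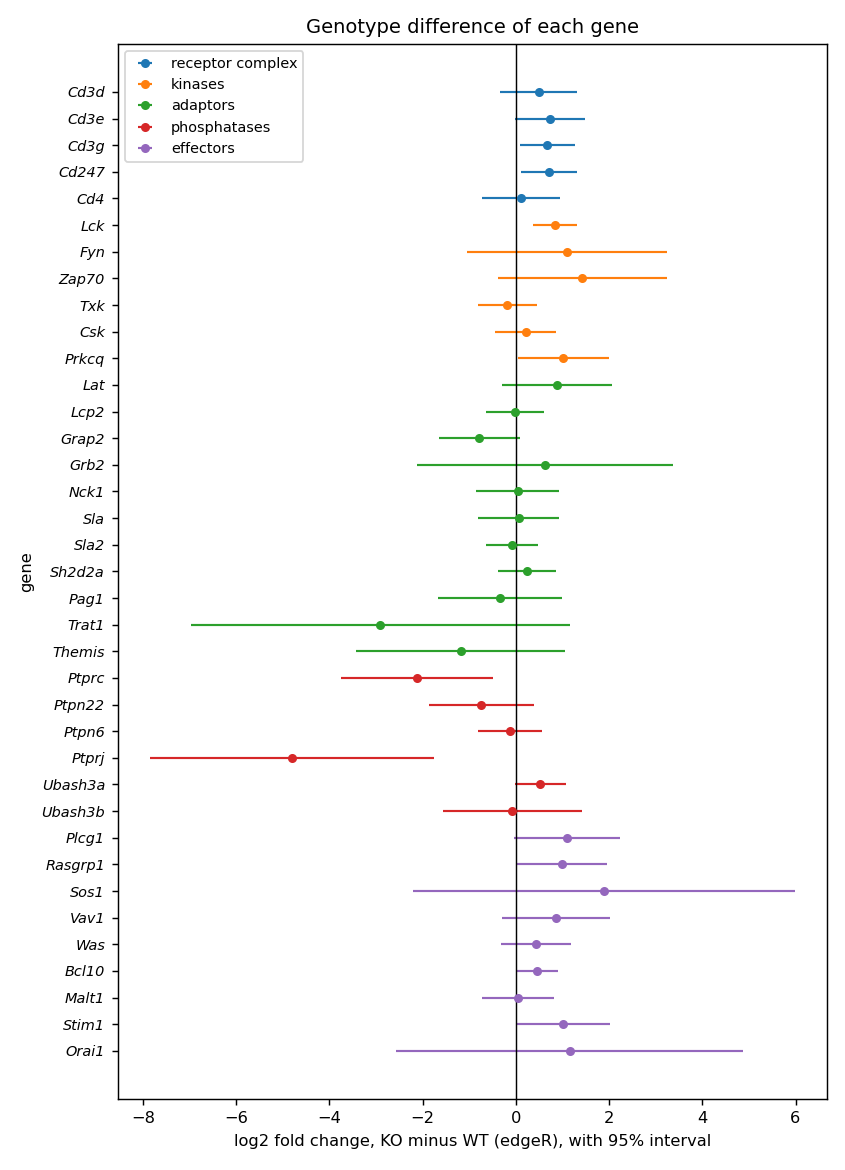
Log2 fold change of KO over WT (x axis, log2 units) for each of the 37 genes (y axis), grouped by role; points are edgeR estimates from 6 KO and 4 WT libraries, horizontal bars are 95% confidence intervals, and the vertical line at 0 marks equal levels. The 9 effectors and 5 receptor complex genes lie right of 0, 5 of 6 phosphatases lie left of it, and no gene passed an adjusted p of 0.05.

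Levels within a genotype were compared as CPM per kilobase of exon not shared with another gene. Lck, the kinase that starts the chain, was first in both genotypes, at 1912 CPM per kb in KO and 1066 CPM per kb in WT. In KO it was followed by Cd3e at 749, Ptpn6 at 701, Cd247 at 655 and Cd3d at 596 CPM per kb, and in WT by Ptpn6 at 764, Cd3e at 454, Cd3d at 425 and Cd247 at 399 CPM per kb. The lowest level in KO was that of Ptprj, at 0.0433 CPM per kb against 1.22 in WT, and the lowest in WT was that of Sos1, at 0.260 CPM per kb in KO against 0.0700 in WT.

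**Figure D2:**
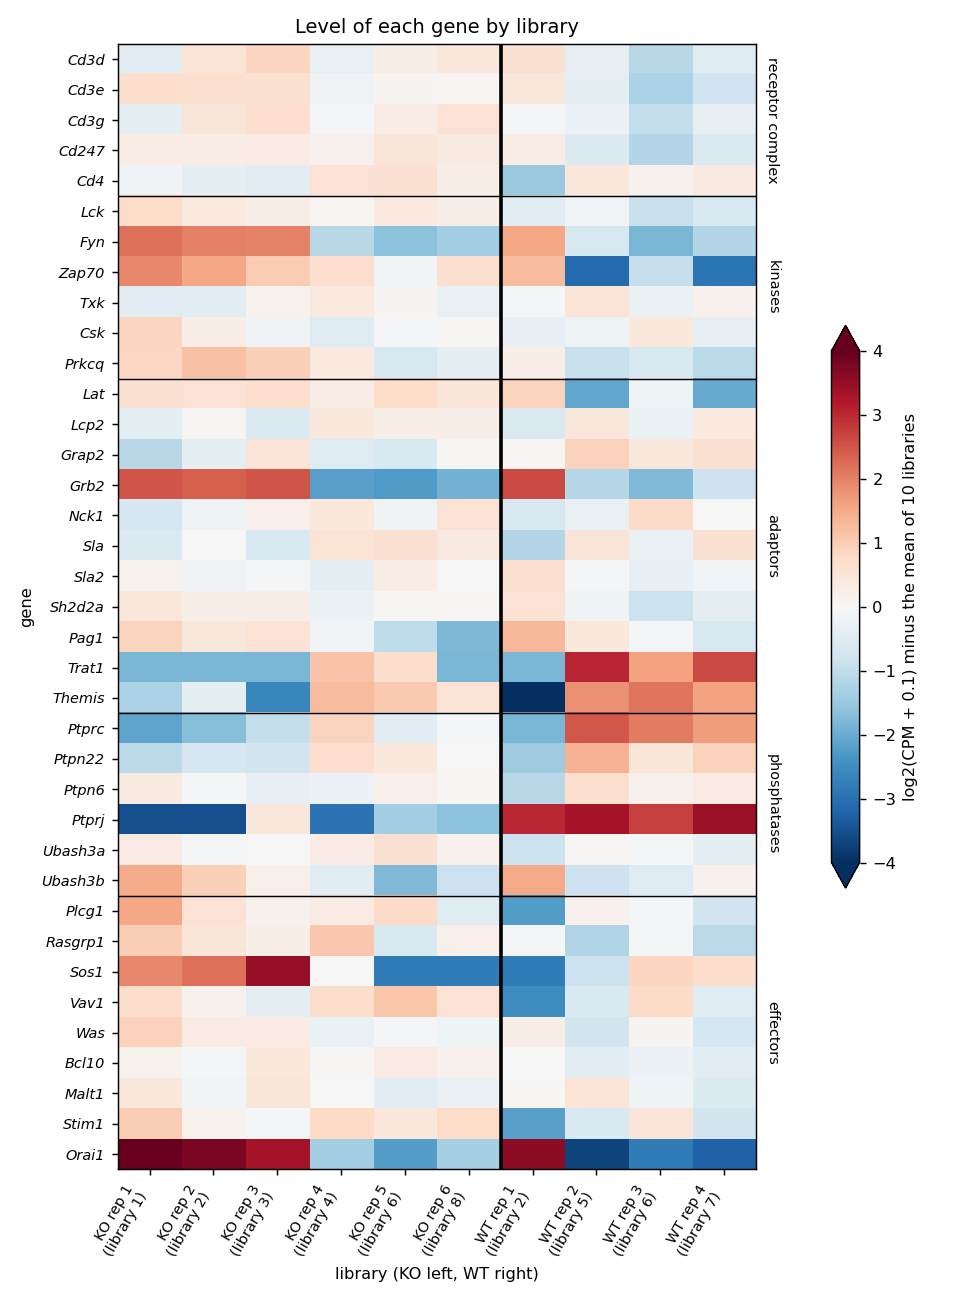
Level of each gene in each library, as log2 of CPM plus 0.1 minus that gene's mean over all 10 libraries (colour scale, log2 units), with the 37 genes in rows by role and the libraries in columns, 6 KO left of 4 WT. Fyn, Grb2 and Orai1 are high in KO replicates 1 to 3 and WT replicate 1, and Ptprj is lower in each of the 6 KO columns than in any WT column.

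The receptor complex genes encode the CD3 delta, epsilon and gamma chains, the zeta chain CD247, which carries most of the complex's phosphorylation motifs, and the CD4 coreceptor. Cd3e ranged over 2058, 2985 and 3697 CPM (lowest, median and highest) in KO, against 3124, 1768, 954 and 1319.7 CPM in WT replicates 1 to 4. WT replicate 1 lay within the KO range and the other WT libraries below it. Log2 KO/WT was 0.72 (SE 0.34, edgeR adjusted p = 0.296), and it was 1.14 (adjusted p = 0.0324) without WT replicate 1 and 0.86 (adjusted p = 0.124) within library numbers 4 to 8. Cd247 had 1247, 1368 and 1557 CPM in KO, against 1364, 764, 493 and 757 CPM in WT. Again WT replicate 1 alone reached the KO libraries. The log2 fold change of Cd247 was 0.71 (SE 0.27, edgeR adjusted p = 0.199), 1.05 (adjusted p = 0.0131) without WT replicate 1 and 1.14 (adjusted p = 0.0447) within library numbers 4 to 8. Other genes, among them Pou2f1 on the opposite strand, overlap 60.3% of the exonic bases of Cd247, and counting used no strand, so its counts are uncertain.

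Cd3d and Cd3g lie head to head on chromosome 9. Cd3d averaged 1083 ± 359 CPM in KO (SD, n = 6) and 772 ± 403 CPM in WT (SD, n = 4), with log2 KO/WT at 0.49 (edgeR adjusted p = 0.525). Cd3g averaged 1438 ± 366 CPM in KO libraries and 901 ± 218 CPM in WT libraries, with log2 KO/WT at 0.68 (adjusted p = 0.222). Within library numbers 4 to 8, Cd3d, Cd3e, Cd3g and Cd247 were higher in each of 3 KO libraries than in any of 3 WT libraries, as were 13% of all genes, with log2 fold changes of 0.84, 0.86, 0.84 and 1.14. Within library numbers 1 to 3, WT replicate 1 lay in the KO range for Cd3d, Cd3g and Cd247 and below it for Cd3e. There the log2 fold changes were -0.15 for Cd3d, 0.24 for Cd3e, 0.44 for Cd3g and 0.04 for Cd247. With scaling to T cell genes the changes over all libraries were -0.14 for Cd3d, 0.24 for Cd3e, -0.07 for Cd3g and 0.10 for Cd247. The start regions of Cd3d and Cd3g are shown because these neighbours had the same log2 fold change, 0.84, within library numbers 4 to 8. Capitals mark matches on either strand to a GC box core (GGGCGG), a RUNX core (TGTGGT) or an ETS core (GGAAGT), in RefSeq sequence of GRCm38.p6 from 250 bases before to 50 after the start.
Cd3d, chr9:44981536-44981835, plus strand: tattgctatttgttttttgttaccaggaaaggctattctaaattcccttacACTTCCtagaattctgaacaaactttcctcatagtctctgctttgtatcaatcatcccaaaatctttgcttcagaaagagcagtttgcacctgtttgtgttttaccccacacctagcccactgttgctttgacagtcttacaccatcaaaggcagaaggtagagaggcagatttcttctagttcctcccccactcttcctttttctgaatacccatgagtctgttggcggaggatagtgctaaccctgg
Cd3g, chr9:44980382-44980681, minus strand: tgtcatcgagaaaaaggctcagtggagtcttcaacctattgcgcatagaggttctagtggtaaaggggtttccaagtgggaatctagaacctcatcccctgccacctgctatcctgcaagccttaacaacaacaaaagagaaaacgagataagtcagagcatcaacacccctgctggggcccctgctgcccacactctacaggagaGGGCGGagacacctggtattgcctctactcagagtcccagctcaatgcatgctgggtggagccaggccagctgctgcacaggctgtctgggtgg

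The coreceptor gene Cd4, used for sorting in both groups, had 876, 1276 and 1828 CPM in KO, against 425, 1657, 1337 and 1524 CPM in WT. The lowest values in each genotype were those of library numbers 1 to 3, and the genotypes overlapped. Log2 KO/WT was 0.11 (SE 0.38, 95% interval -0.74 to 0.95, edgeR adjusted p = 0.905). Relative to Cd3e in the same library, Cd4 was at 0.252 to 0.873 in KO and 0.136, 0.938, 1.40 and 1.15 in WT. This ratio differed by -0.61 on the log2 scale (exact two-sided permutation p = 0.405, 0.747 after Benjamini-Hochberg adjustment over 8 ratios), and by -1.38 (adjusted exact p = 0.0476) without WT replicate 1.

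**Figure D3:**
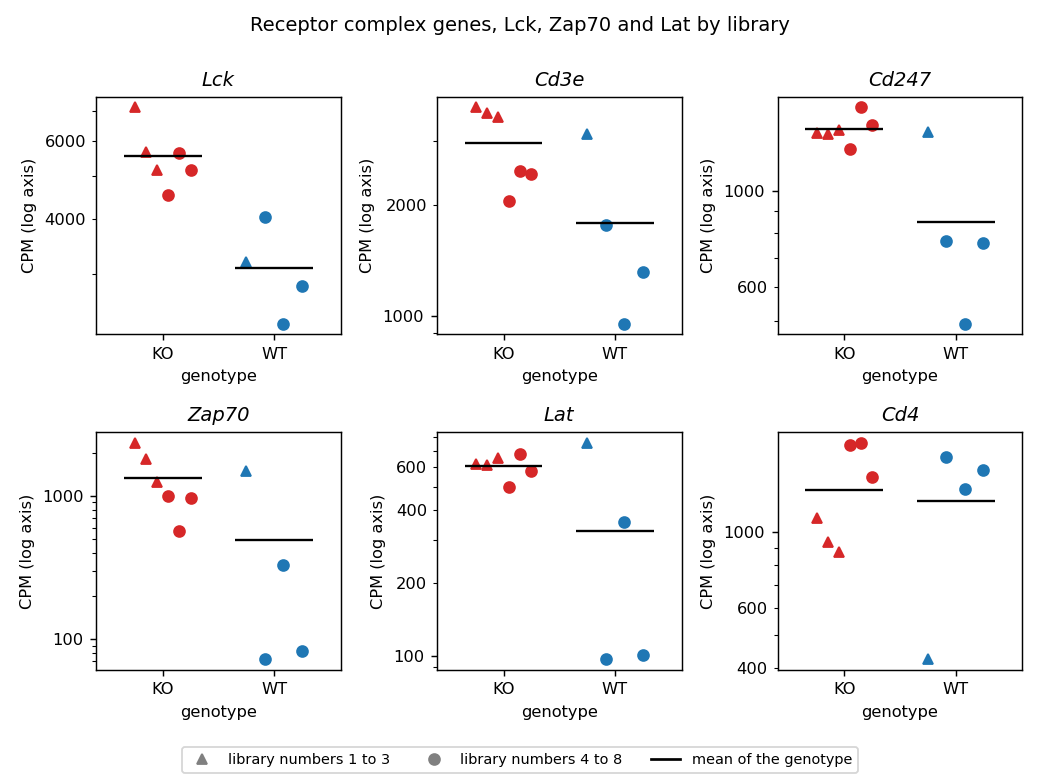
CPM (y axes, log scale, separate for each gene) of Lck, Cd3e, Cd247, Zap70, Lat and Cd4 in each library, KO left of WT; triangles are library numbers 1 to 3, circles are library numbers 4 to 8 and horizontal lines are means of the genotype. Every KO library lies above every WT library for Lck, and WT replicate 1 (the WT triangle) lies within or above the KO libraries for Cd3e, Cd247, Zap70 and Lat.

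Among the kinases, Lck had 4536, 5408 and 7144 CPM (lowest, median and highest) in KO, against 3198, 4032, 2322 and 2829.9 CPM in WT. Every KO library lay above every WT library. No other member was higher in KO without overlap, and 2.59% of all genes tested were. Lck averaged 5553 ± 883 CPM in KO (SD, n = 6) and 3095 ± 720.1 CPM in WT (SD, n = 4), which is 1.79-fold (95% interval 1.29 to 2.49) or 0.84 on the log2 scale (SE 0.21). Its edgeR adjusted p of 0.0652 was the lowest of the 37 and missed the threshold. The change was 0.81 within library numbers 4 to 8, 0.94 within 1 to 3 and 0.18 with scaling to T cell genes. DESeq2 gave an adjusted p of 0.00778, and edgeR gave 0.0391 without WT replicate 1 and 0.0439 without WT replicate 2.

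Lck has a distal and a proximal promoter, and their start regions are shown because Lck had both the highest level and the lowest p of the list. Capitals mark the same 3 cores as above.
Lck distal, chr4:129573592-129573891, minus strand: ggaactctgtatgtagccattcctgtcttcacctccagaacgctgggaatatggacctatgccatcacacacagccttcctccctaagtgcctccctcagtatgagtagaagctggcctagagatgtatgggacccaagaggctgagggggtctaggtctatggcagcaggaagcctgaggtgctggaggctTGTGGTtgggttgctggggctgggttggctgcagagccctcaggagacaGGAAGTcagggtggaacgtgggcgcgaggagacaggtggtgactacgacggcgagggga
Lck proximal, chr4:129558323-129558622, minus strand: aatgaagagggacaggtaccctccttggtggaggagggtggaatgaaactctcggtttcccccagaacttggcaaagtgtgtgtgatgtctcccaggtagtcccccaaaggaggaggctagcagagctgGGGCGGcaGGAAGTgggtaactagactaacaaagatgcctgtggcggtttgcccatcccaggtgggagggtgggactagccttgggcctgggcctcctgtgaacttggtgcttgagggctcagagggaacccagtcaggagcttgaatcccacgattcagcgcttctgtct
The distal window holds a RUNX core and an ETS core, and the proximal window a GC box next to an ETS core. RefSeq gave 44 windows for 32 of the 37 genes. The GC box was in 34.1% of them and in 35.6% of all 32817 windows, the RUNX core in 20.5% and 16.8%, and the ETS core in 38.6% and 23.8%. A match describes the letters of the window and is no measure of binding.

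Zap70, the kinase that docks on the phosphorylated chains, had 572, 1127 and 2342 CPM in KO, against 1489, 72.7, 329 and 82.1 CPM in WT. WT replicates 2 to 4 lay below every KO library and WT replicate 1 within them. Over all libraries the log2 fold change was 1.43 (SE 0.82, edgeR adjusted p = 0.396), with 2.41 (adjusted p = 0.0760) within library numbers 4 to 8 and 0.32 within 1 to 3. Without WT replicate 1 it was 3.04 (adjusted p = 0.0196). Relative to Lck in the same library, Zap70 was at 0.101 to 0.328 in KO and 0.466, 0.0180, 0.142 and 0.0290 in WT, a difference of 1.51 on the log2 scale (exact permutation p = 0.143, adjusted 0.381).

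Fyn, the second SRC-family kinase of T cells, followed the library number and not the genotype. It had 693, 607 and 596 CPM in KO replicates 1 to 3 and 69.8, 48.4 and 59.0 CPM in KO replicates 4 to 6, against 440.2 CPM in WT replicate 1 and 96.2, 42.9 and 67.3 CPM in WT replicates 2 to 4. The fold change of KO over WT was 1.10 on the log2 scale (SE 0.97, edgeR adjusted p = 0.594), and -0.16 within library numbers 4 to 8. The ratio of Lck to Fyn was 8.67 to 10.3 in KO replicates 1 to 3 and 65.0 to 117 in KO replicates 4 to 6, against 7.26 in WT replicate 1 and 41.9 to 54.1 in WT replicates 2 to 4. Over all libraries it differed by -0.01 between genotypes (exact permutation p = 0.990).

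Csk, which adds the inhibitory phosphate to LCK, had 277, 389 and 715 CPM in KO, against 316, 344, 523 and 313 CPM in WT, and the genotypes overlapped (log2 KO/WT of 0.21 with SE 0.30, edgeR adjusted p = 0.742). Its ratio to Lck was 0.0611 to 0.100 in KO, against 0.0989, 0.0854, 0.225 and 0.111 in WT. The ratio differed by -0.68 on the log2 scale (exact permutation p = 0.0238, adjusted 0.133), by -0.92 within library numbers 4 to 8, and without WT replicate 1 by -0.77 (adjusted exact p = 0.0476). The protein kinase C gene Prkcq averaged 128 ± 57.8 CPM in KO libraries and 63.1 ± 29.4 CPM in WT libraries (log2 KO/WT of 1.02, edgeR adjusted p = 0.259). Within library numbers 4 to 8 its lowest KO value and its highest WT value were both 56.7 CPM when rounded. Txk, a TEC-family kinase, averaged 53.8 ± 12.8 CPM in KO libraries and 61.2 ± 15.1 CPM in WT libraries, and its 95% interval of -0.82 to 0.45 on the log2 scale included 0.

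Of the 11 adaptors, none differed between genotypes without overlap over all libraries, against 2.59% of all genes higher and 6.31% lower in KO. Lat, the membrane scaffold phosphorylated by ZAP70, ranged over 497, 618 and 678 CPM in KO, against 757, 97.3, 357 and 101 CPM in WT. KO libraries stayed in a narrow range, and WT libraries fell on both sides of it. The log2 fold change of Lat was 0.89 (SE 0.53, edgeR adjusted p = 0.416), with 1.72 (adjusted p = 0.0347) without WT replicate 1, 1.70 within library numbers 4 to 8 and -0.22 within 1 to 3. Lcp2, which binds LAT through the GADS protein encoded by Grap2, averaged 606 ± 148 CPM in KO libraries and 614 ± 205 CPM in WT libraries, a log2 fold change of -0.02 with a 95% interval of -0.65 to 0.61. Grap2 averaged 14.0 ± 5.72 CPM in KO libraries and 24.2 ± 5.88 CPM in WT libraries (log2 KO/WT of -0.78, edgeR adjusted p = 0.329).

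Sla and Sla2 encode SLAP adaptors that promote loss of receptor chains from the surface. Sla had 359, 619 and 836 CPM in KO, against 241, 780.4, 448 and 819.6 CPM in WT. Sla2 had 114, 142 and 177 CPM in KO, against 228, 137, 116 and 134 CPM in WT, with 23.6% of its exonic bases overlapped by another gene. Both overlapped between genotypes, and the log2 fold changes were 0.06 and -0.09. The ratio of Sla2 to Sla ranged over 0.145 to 0.447 in KO, against 0.946, 0.176, 0.259 and 0.164 in WT, a log2 difference of -0.19 (exact permutation p = 0.776, adjusted 0.990) that was 0.38 without WT replicate 1.

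Trat1, a transmembrane adaptor bound to the receptor complex, was near the limit of detection. KO replicates 4 and 5 had 27 and 22 counts and the other 4 KO libraries had 0, against 0, 99, 37 and 75 counts in WT. A count of 0 allows up to 0.0554 to 0.0851 CPM in a KO library, for counting error only. On the CPM scale these are 0 to 0.685 in KO and 0, 2.82, 0.985 and 2.11 in WT, with log2 KO/WT at -2.91 (SE 1.84, edgeR adjusted p = 0.440). Themis, which acts in thymic selection, averaged 5.99 ± 4.58 CPM in KO libraries and 13.6 ± 9.38 CPM in WT libraries (log2 KO/WT of -1.19, edgeR adjusted p = 0.577). The remaining adaptors were Sh2d2a, Grb2, Nck1 and Pag1, with mean levels of 12.0 to 898 CPM in KO and 15.1 to 758 CPM in WT, log2 fold changes of -0.34 to 0.62 and overlapping genotypes.

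Over all libraries, 1 of 6 phosphatase-group genes and 5 of 6 kinases had log2 fold changes above 0, against 45.7% of all genes. Of the phosphatase-group genes below 0, Ptpn6 at -0.12 and Ubash3b at -0.07 changed sign in some fits that left out 1 library. Within library numbers 4 to 8, 1 of 6 phosphatase-group genes and 3 of 6 kinases lay above 0. Within 1 to 3 these were 4 of 6 and 5 of 6. Ptprj encodes CD148, a receptor phosphatase known from B cells and myeloid cells as well as T cells. It had 0, 0.161 and 1.50 CPM (lowest, median and highest) in KO, against 9.23, 11.4, 7.59 and 12.6 CPM in WT. Every KO library lay below every WT library. No other member was lower in KO without overlap, and 6.31% of all genes tested were. These levels rest on 111 counts over the 6 KO libraries, 2 of them at 0, and 1517 counts over the 4 WT libraries. Log2 KO/WT was -4.80 (SE 1.38, 95% interval -7.85 to -1.75, edgeR adjusted p = 0.101), with -5.43 (adjusted p = 0.0170) within library numbers 4 to 8 and -4.16 within 1 to 3. DESeq2 gave an adjusted p of 0.00191, and scaling to T cell genes gave -5.72 (edgeR adjusted p = 0.0311). The B and plasma cell markers of the same libraries summed to 1004 to 1571 CPM in KO and 7443 to 65374 CPM in WT, and the myeloid markers to 3.12 to 224 CPM and 1028 to 7022 CPM. Their part in the level of Ptprj was not tested. A GC-rich start region of Ptprj, with 79.3% GC, is shown because Ptprj was the only member lower in every KO library. It holds 5 GC boxes, in capitals, and neither of the other cores. Another start region of Ptprj, at chr2:90479125-90479424 and not shown, has 45% GC and 0 matches to each of the cores.
Ptprj, chr2:90580546-90580845, minus strand: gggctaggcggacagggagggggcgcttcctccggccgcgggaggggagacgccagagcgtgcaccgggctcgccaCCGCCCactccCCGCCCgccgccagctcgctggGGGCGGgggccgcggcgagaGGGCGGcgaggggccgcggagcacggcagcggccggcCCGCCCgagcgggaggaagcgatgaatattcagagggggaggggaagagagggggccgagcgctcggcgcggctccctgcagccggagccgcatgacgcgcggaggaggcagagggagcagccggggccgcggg

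Ptprc encodes CD45, whose alleles are the Ly5 markers used to sort the groups. It had 21.2, 57.7 and 169.6 CPM in KO, against 25.7, 518, 389 and 293 CPM in WT. WT replicate 1 lay in the KO range, and the other 3 WT libraries lay above every KO library. Log2 KO/WT was -2.12 (SE 0.74, edgeR adjusted p = 0.170), -1.84 (adjusted p = 0.0346) within library numbers 4 to 8, 0.37 within 1 to 3 and -2.50 (adjusted p = 0.0244) without WT replicate 1. Ptpn22, which acts with CSK, averaged 172 ± 82.0 CPM in KO libraries and 288 ± 173 CPM in WT libraries (log2 KO/WT of -0.74, edgeR adjusted p = 0.477). Both genes are also active in B cells, and the part of the B cell markers given above was not tested.

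Ptpn6 encodes SHP-1, a cytoplasmic phosphatase that damps LCK and ZAP70. It had 1448, 1789 and 2327 CPM in KO, against 841, 2814, 2026 and 2283 CPM in WT, and the genotypes overlapped (log2 KO/WT of -0.12 with SE 0.31, edgeR adjusted p = 0.862). Relative to Lck in the same library, Ptpn6 was at 0.280 to 0.369 in KO, against 0.263, 0.698, 0.873 and 0.807 in WT. KO ratios lay in a narrow range across both library sets, and WT replicates 2 to 4 lay above all of them while WT replicate 1 lay below. The ratio differed by -0.87 on the log2 scale (exact permutation p = 0.0333, adjusted 0.133 over 8 ratios, smallest p possible 0.00476), by -1.15 within library numbers 4 to 8, and by -1.27 (adjusted exact p = 0.0476) without WT replicate 1. Ptpn6 is also expressed by B and myeloid cells, whose markers were higher in WT as given above, and their part in this ratio was not tested.

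Ubash3a and Ubash3b encode the STS proteins, which dephosphorylate or dampen ZAP70. Ubash3a, found mainly in T cells, had 223, 277 and 360.2 CPM in KO, against 129, 245, 222 and 179 CPM in WT. It was the only phosphatase-group gene with a positive log2 KO/WT, at 0.52 with SE 0.25 (edgeR adjusted p = 0.304). It was higher in KO without overlap within library numbers 4 to 8. Ubash3b had 7.15, 23.3 and 68.3 CPM in KO, against 70.1, 13.7, 17.1 and 27.4 CPM in WT (log2 KO/WT of -0.07, adjusted p = 0.965). The ratio of Ubash3b to Ubash3a was 0.0200 to 0.230 in KO, against 0.542, 0.0562, 0.0775 and 0.154 in WT (log2 difference -0.69, exact permutation p = 0.467).

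**Figure D4:**
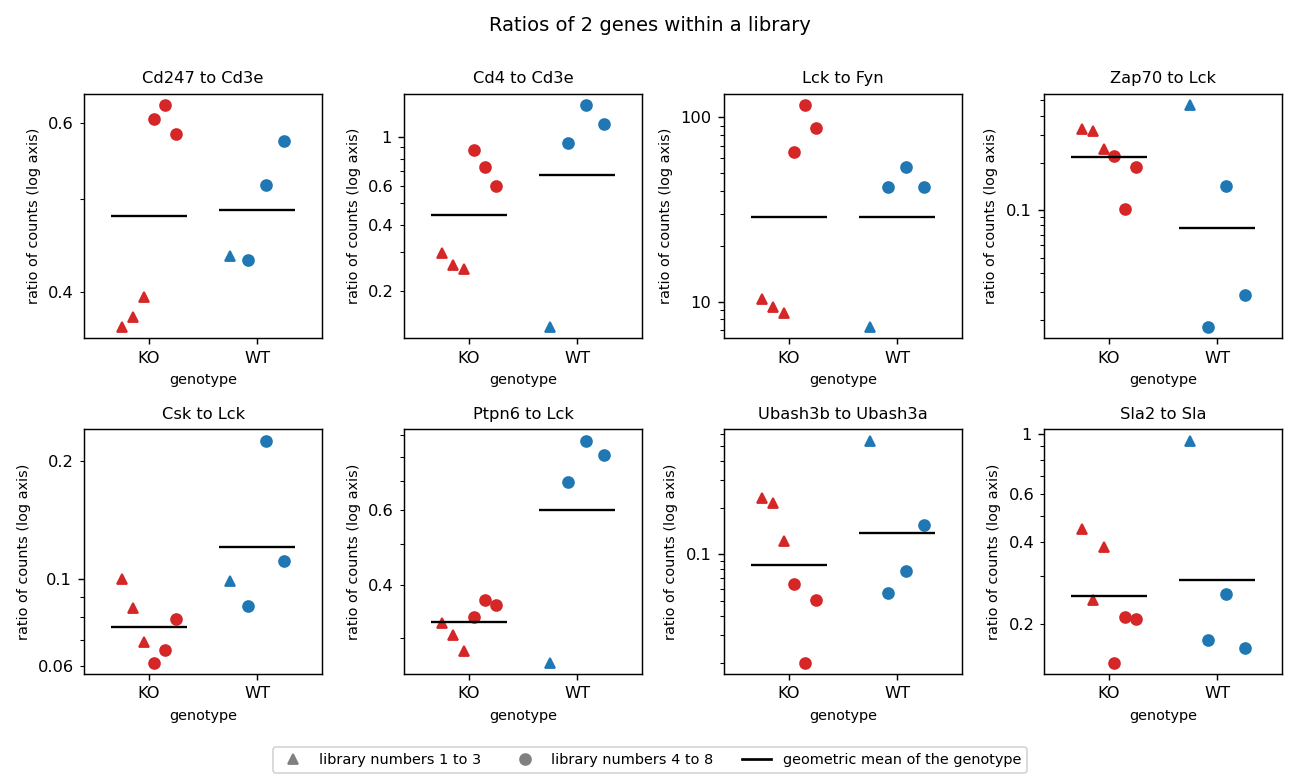
Ratio of the counts of 2 genes within a library (y axes, log scale, separate for each pair) for the 8 pairs compared, KO left of WT; triangles are library numbers 1 to 3, circles are library numbers 4 to 8 and horizontal lines are geometric means of the genotype. For Ptpn6 to Lck the 6 KO libraries lie between 0.280 and 0.369 and WT replicates 2 to 4 between 0.698 and 0.873, and for Lck to Fyn the values split by library number.

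A ratio of 2 genes of 1 library does not depend on the scaling of that library. None of the 8 ratios passed an adjusted exact p of 0.05, and Csk to Lck and Ptpn6 to Lck had unadjusted values under it. Without WT replicate 1, 4 of the 8 passed, those of Cd4 to Cd3e, Zap70 to Lck, Csk to Lck and Ptpn6 to Lck. That comparison has no WT library with a number of 1 to 3, so library set is partly mixed with genotype in it. Cd4 to Cd3e was 0.252 to 0.297 in KO replicates 1 to 3 and 0.597 to 0.873 in KO replicates 4 to 6. Ptpn6 to Lck was 0.280 to 0.326 and 0.336 to 0.369 in the same libraries. The ratio of Cd247 to Cd3e, 2 subunits of 1 complex, was 0.368 to 0.626 in KO, against 0.437, 0.432, 0.517 and 0.574 in WT, with a log2 difference of -0.02 (exact permutation p = 0.910).

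The 9 effectors all had log2 fold changes above 0, from 0.04 to 1.89, and none passed the test (edgeR adjusted p of 0.263 to 0.962). Sos1, a RAS exchange factor, had the largest fitted change and the lowest levels. It had 90, 145, 416, 24, 0 and 0 counts in KO replicates 1 to 6, against 0, 10, 44 and 37 counts in WT, which is 0, 1.58 and 7.68 CPM (lowest, median and highest) in KO against 0, 0.285, 1.17 and 1.04 CPM in WT. The genotypes overlapped (log2 KO/WT of 1.89 with SE 1.86, edgeR adjusted p = 0.634), and within library numbers 4 to 8 the change was -2.05.

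Rasgrp1, the diacylglycerol-dependent RAS activator of T cells, averaged 34.8 ± 13.5 CPM in KO libraries and 17.4 ± 7.29 CPM in WT libraries (log2 KO/WT of 1.00, edgeR adjusted p = 0.263). Plcg1, which cleaves the lipid that yields diacylglycerol and inositol trisphosphate, averaged 107 ± 53.6 CPM in KO libraries and 50.4 ± 28.6 CPM in WT libraries (1.09, adjusted p = 0.295). Vav1, a RAC exchange factor, averaged 549.7 ± 180.2 CPM in KO libraries and 302 ± 237 CPM in WT libraries (0.86, adjusted p = 0.420), and Was, which drives actin branching, averaged 90.8 ± 30.7 CPM in KO libraries and 67.0 ± 23.8 CPM in WT libraries (0.44, adjusted p = 0.533). In each of these 4 genes at least 1 WT library lay within the KO range.

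Bcl10 and Malt1 form the complex that links the receptor to NF-kB. Bcl10 averaged 245 ± 28.6 CPM in KO libraries and 178 ± 25.7 CPM in WT libraries (log2 KO/WT of 0.46 with SE 0.20, edgeR adjusted p = 0.267). DESeq2 called it higher. Malt1 averaged 23.8 ± 6.16 CPM in KO libraries and 23.1 ± 7.62 CPM in WT libraries, with a 95% interval of -0.73 to 0.82. The calcium sensor gene Stim1 averaged 154 ± 41.0 CPM in KO libraries and 76.1 ± 52.8 CPM in WT libraries (1.02, edgeR adjusted p = 0.273), and the channel it opens, encoded by Orai1, split by library number.

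Differences between the library sets were larger than those between genotypes for several members. Orai1 had 1338, 1135 and 837 CPM in KO replicates 1 to 3 and 32.6, 18.2 and 32.9 CPM in KO replicates 4 to 6, against 989 CPM in WT replicate 1 and 6.36, 11.8 and 8.70 CPM in WT replicates 2 to 4. Grb2, the adaptor that brings SOS to LAT, had 274, 251 and 278 CPM and then 10.6, 10.0 and 12.9 CPM in the same KO libraries, against 299 CPM in WT replicate 1 and 21.6, 14.2 and 27.2 CPM in the other WT libraries. Both genes were high in library numbers 1 to 3 whatever the genotype. Within KO alone, the mean of library numbers 1 to 3 exceeded that of 4 to 8 by 5.33 on the log2 scale for Orai1, 4.58 for Grb2 and 3.43 for Fyn, against 0.22 for Lck and -0.04 for Cd247.

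Over both genotypes, 9 members were higher in library numbers 1 to 3 than in 4 to 8 without overlap, against 11.2% of all genes tested. They were Cd3e, Fyn, Zap70, Grb2, Sh2d2a, Pag1, Ubash3b, Was and Orai1. In the opposite direction, 4 members did not overlap, Cd4, Themis, Ptprc and Ptpn22, against 7.56%. Themis had 1.96, 3.78 and 0.720 CPM and then 12.0, 10.3 and 7.21 CPM in the KO replicates, against 0.169 CPM in WT replicate 1 and 17.7, 21.7 and 15.0 CPM in the others. Lat, Grb2, Themis, Orai1 and Ptprc are given by library because their values stood out, and they were chosen after those values were seen.

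**Figure D5:**
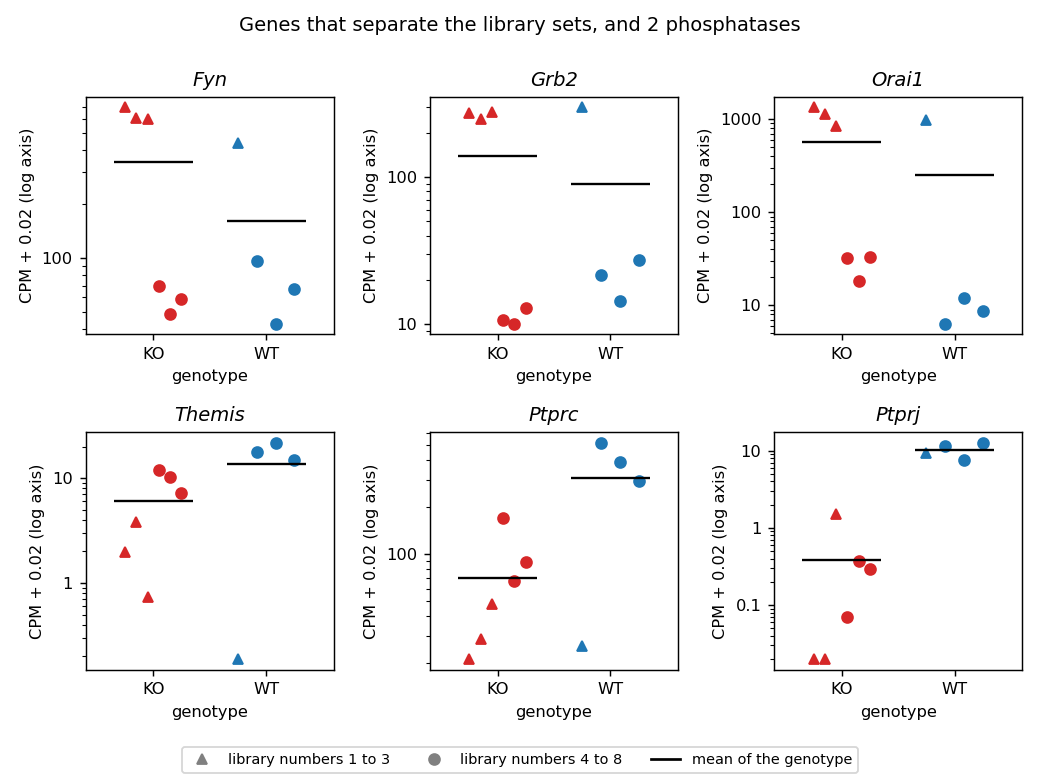
CPM plus 0.02 (y axes, log scale, separate for each gene) of Fyn, Grb2, Orai1, Themis, Ptprc and Ptprj in each library, KO left of WT; triangles are library numbers 1 to 3, circles are library numbers 4 to 8 and horizontal lines are means of the genotype. Triangles lie above circles in both genotypes for Fyn, Grb2 and Orai1 and below them for Themis and Ptprc, and Ptprj is lower in every KO library than in any WT library.

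GC content moved with both splits. Across the 37 members, the transcript's GC content and the log2 difference between library sets had a Spearman correlation of 0.38, against 0.31 over the 11629 of 14214 genes with a value, and GC content and the log2 fold change of KO over WT had 0.39, against 0.36. The genes share libraries and are not independent, so these are descriptions. Orai1, Zap70 and Lat had the highest GC content of the members, at 60.4, 60.1 and 57.9%, and Trat1, Sos1 and Ptprc were among the lowest, at 39.2, 41.0 and 42.7%. The part of GC content in the results was not tested.

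Within library numbers 4 to 8, where 3 KO and 3 WT libraries can be compared, 11 members were higher in KO without overlap, against 13% of all genes, and 6 were lower, against 20.5%. The 11 were Cd3d, Cd3e, Cd3g, Cd247, Lck, Zap70, Prkcq, Lat, Ubash3a, Bcl10 and Orai1, and the 6 were Grap2, Grb2, Trat1, Themis, Ptprc and Ptprj. The edgeR test on these libraries called 1 member higher, Cd247, against 0.842% of genes, and 2 lower, Ptprc and Ptprj, against 7.18%. The members' median log2 fold change there was 0.25, against -0.05 over all genes, and by role 0.84 for the receptor complex, 0.36 for kinases, 0.14 for adaptors, -0.53 for phosphatases and 0.63 for effectors. Within library numbers 1 to 3, with its lone WT library, the median over members was 0.36, against 0.31 over all genes, and by role 0.24 for the receptor complex, 0.65 for kinases, -0.17 for adaptors, 0.52 for phosphatases, with 4 of 6 above 0, and 0.67 for effectors. With a term for library set over all 10 libraries edgeR called no member, against 0.816% of genes called higher and 2.78% called lower.

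The members were also divided by where they are known to be used. Of 15 used mainly in T cells, 11 had a log2 fold change above 0, with a median of 0.52, and of 22 also used by B cells or myeloid cells, 14 did, with a median of 0.14. Against -0.12 over all genes tested, both medians were higher, and no test was made of the difference. Within library numbers 4 to 8 the medians were 0.76 and 0.02. Within 1 to 3 the order turned, with 0.28 over 14 genes and 0.43 over 22. With scaling to T cell genes they were -0.14 and -0.43, against -0.92 over all genes.

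The other genes of the pathway were taken from a list of 35, among them receptor chains, costimulatory receptors, further kinases and adaptors. In KO, 1 was called higher, against 0.429% of all genes, and 1 lower, against 2.7%. Of the 35, 22 had a log2 fold change above 0, against 45.7% of all genes, with a median of 0.16, against -0.12. Cd5, a surface receptor that damps receptor signals, had 659, 1059 and 1312 CPM in KO, against 365, 271, 429 and 270.2 CPM in WT. Every KO library lay above every WT library (log2 KO/WT of 1.65 with SE 0.26, edgeR adjusted p = 0.00895), and with scaling to T cell genes the change was 0.86 (adjusted p = 0.279). Tec, a kinase related to Txk that is also used by B cells, had 4.31, 5.29 and 10.3 CPM in KO, against 1.59, 115, 89.2 and 69.2 CPM in WT. WT replicate 1 lay below every KO library and the other WT libraries far above. The change of Tec was -3.49 (SE 0.79, edgeR adjusted p = 0.0407), and it stayed at -3.90 to -3.11 in the 10 fits that left out 1 library, although 9 of them lost the call. It was -4.05 within library numbers 4 to 8 and 2.16 within library numbers 1 to 3.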

How the data were processed

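The SMART-seq v4 kit was used to amplify RNA of sorted SMARTA CD4 T cells for paired-end sequencing, per the labels' protocols. The authors deposited counts of read pairs per gene, made with featureCounts 1.6.2 on GENCODE M17 and GRCm38.p6, per the file headers. Counting used no strand and no read matching several places, so overlapping genes are uncertain. STAR and FastQC are named in the submitters' processing notes; no version is given in the sources used here.

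Libraries were grouped by genotype, 6 KO and 4 WT. Counts were scaled by TMM, 14214 genes passed filterByExpr, and the genotypes were compared in edgeR 4.0.16 (quasi-likelihood, genotype as the lone term, R 4.3.3), adjusted by Benjamini-Hochberg over all genes at 0.05. The SE is the log2 fold change over the square root of F. Alternatives were DESeq2 1.42.0, limma 3.58.1 (voom with quality weights), other scalings and filters, a term for library set, replicate blocks and leaving out each library. The comparison within library numbers 1 to 3, with a lone WT library assumed to vary like KO, was added after seeing the data, as was the scaling to 5 T cell genes. One gene of the pathway is not reported here. The 8 ratios added 2 to each count and were compared by exact two-sided permutation over 210 assignments.

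The members and lists were chosen with earlier results of these data known. All members are named by role. Values by library, for KO mostly as the lowest, median and highest of 6, are given for the member with the largest fold change of each role, members without overlap and members of the ratios. The lowest chi-square per degree of freedom between libraries of a group was 133, so no library was a copy of another. The edgeR steps were checked on simulated counts with planted changes larger than those of most members and no difference between library sets. The exact permutation was checked on values with a known answer. Power for changes of the size seen here was not tested. GC content came from GENCODE M21 transcripts, and promoters from RefSeq on GRCm38.p6. Limits from counts of 0 (3 counts) cover counting error only.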

Additional observations from a re-analysis of the deposited data

Results flagged for a closer look

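In 4 of 90 groups of libraries checked, 1 library lay far from the others of its genotype, and in all 4 it was WT replicate 1. Chance gives such a gap in about 1 group in 20. Cd4 was at 425 CPM in WT replicate 1 and at 1337 to 1657 CPM in the other WT libraries. Themis was at 0.169 CPM there and at 15.0 to 21.7 CPM in the others. Orai1 was at 989 CPM there and at 6.36 to 11.8 CPM in the others. The ratio of Lck to Fyn was 7.26 there and 41.9 to 54.1 in the others. WT replicate 1 is the lone WT library with a library number of 1 to 3, and for Cd4, Themis, Orai1 and the ratio of Lck to Fyn the KO libraries with those numbers lay on the same side of the other KO libraries.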

How the results depend on the processing

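The 0 members called higher and 0 called lower, and the 1 other pathway gene called each way (Cd5 and Tec), were recomputed under each alternative. A sign change is a log2 difference of KO minus WT with the opposite sign to the reported one, and counts not given were within 1.5 times the reported ones. The cause of each difference was not tested. With the DESeq2 test, the calls in KO were 3 members higher, 2 members lower, 2 other pathway genes higher and 2 other pathway genes lower, with sign changes for Nck1 at -0.029, Sla at -0.0082 and Malt1 at -0.0069. With limma-voom and quality weights, the calls in KO were 12 members higher, 5 members lower, 8 other pathway genes higher and 4 other pathway genes lower, with sign changes for Cd4 at -0.14, Sla at -0.25, Sla2 at 0.078 and Sos1 at -1.78. Within library numbers 4 to 8, the calls in KO were 1 member higher, 2 members lower and 3 other pathway genes higher, with sign changes for Fyn at -0.16, Csk at -0.10, Lcp2 at 0.14, Grb2 at -0.84, Sla2 at 0.25, Sos1 at -2.05, Malt1 at -0.17, Cd247 to Cd3e at 0.26 and Lck to Fyn at 0.93. With scaling to 5 T cell genes, chosen after seeing the data in place of a planned scaling to 1 gene more that is not reported here, the calls in KO were 2 members lower, 0 other pathway genes higher and 4 other pathway genes lower, with sign changes for Cd3d at -0.14, Cd3g at -0.072, Cd4 at -0.87, Csk at -0.53, Nck1 at -1.04, Sla at -0.89, Sh2d2a at -0.30, Ubash3a at -0.35, Vav1 at -0.26, Was at -0.20, Bcl10 at -0.32 and Malt1 at -0.62.

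The labels do not say whether replicate numbers in the titles pair the libraries, and the correlations given here cannot decide it. Same-numbered libraries correlated at 0.29, -0.25, -0.22 and 0.30 in their deviations from the genotype mean, and the library numbers that both genotypes share, 2 and 6, at 0.32 and 0.13. Title numbers 1 and 4, with positive values, each join libraries of the same library set. Title numbers 2 and 3, with negative values, join libraries of different sets, so the signs follow the library set. No member and no other gene was called with either block. Only numbers 2 and 6 hold both genotypes, so the block by library number rests on them alone for the genotype difference. Both blocks leave few libraries to measure the spread, so the lack of calls and the sign changes under them say little about the genes. With a replicate block by title number, the calls in KO were 0 other pathway genes higher and 0 other pathway genes lower, with sign changes for Nck1 at -0.020, Sla at -0.082, Pag1 at 0.20 and Ubash3b at 0.46. With a replicate block by library number, the calls in KO were 0 other pathway genes higher and 0 other pathway genes lower, with sign changes for Lcp2 at 0.56, Grb2 at -0.38, Nck1 at -0.24, Themis at 1.61, Ptpn22 at 0.36, Ptpn6 at 0.54, Rasgrp1 at -0.011, Was at -0.044 and Malt1 at -0.19.

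Within library numbers 1 to 3, the calls in KO were 2 other pathway genes higher and 0 other pathway genes lower, with sign changes for Cd3d at -0.15, Lat at -0.22, Lcp2 at 0.35, Grb2 at -0.12, Sh2d2a at -0.23, Themis at 3.69, Ptprc at 0.37, Ptpn22 at 0.66, Ptpn6 at 1.16 and Tec at 2.16. With no filter on low counts, the calls in KO were 0 other pathway genes lower, with sign changes for Lcp2 at 0.025 and Ubash3b at 0.024. With a mean of at least 8 CPM, the calls in KO were 2 other pathway genes lower, with sign changes for Nck1 at -0.024, Sla at -0.016 and Malt1 at -0.0033. With a term for library set, the calls in KO were 0 other pathway genes lower, with sign changes for Lcp2 at 0.15, Grb2 at -0.67, Ptpn6 at 0.055, Sos1 at -0.98 and Malt1 at -0.074. With DESeq2 size factors, the sign changed for Nck1 at -0.030, Sla at -0.0082 and Malt1 at -0.0071. With a replicate block by sign flips within title numbers, the sign changed for Ubash3b to Ubash3a at 0.017. Over the 10 fits that each left out 1 library, 0 to 5 members were called higher, 0 to 1 lower, 1 to 4 other pathway genes higher and 0 to 2 lower, and 0 to 4 of the 8 ratios passed, the highest of each without WT replicate 1. In those fits the log2 differences that changed sign were Cd4 -0.17 to 0.33, Txk -0.29 to 0.064, Lcp2 -0.18 to 0.21, Nck1 -0.13 to 0.38, Sla -0.19 to 0.35, Sla2 -0.19 to 0.17, Pag1 -0.48 to 0.14, Ptpn6 -0.37 to 0.15, Ubash3b -0.38 to 0.65, Malt1 -0.033 to 0.35, Cd247 to Cd3e -0.098 to 0.059, Lck to Fyn -0.67 to 0.33 and Sla2 to Sla -0.46 to 0.38.

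The number of libraries and the spread of WT replicate 1 from the other WT libraries limit these comparisons. Levels of Trat1, Sos1 and, in KO, Ptprj rest on few counts. The adjusted p of Lck ranged from 0.00345 to 1.00 over 21 alternatives, and 4 of them called it. The alternatives include both replicate blocks, under which no gene at all was called. The sign of Cd3d, Cd3g and Cd4 turned with scaling to 5 T cell genes. That scaling shifted the log2 fold changes of all genes tested by a median of -0.82 and uses the receptor chain genes Trac and Trbc2. DESeq2 size factors turned none of the 5 receptor complex genes.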

Other observations

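Several genes of the pathway outside the 37 members had changes that missed the threshold. Rhoh, which encodes a small GTPase that brings ZAP70 to the membrane, was lower in every KO library, at 143 to 286 CPM against 394, 792, 429.9 and 480.1 CPM in WT (log2 KO/WT of -1.12 with SE 0.27, edgeR adjusted p = 0.0546). Ptpn7, a phosphatase of ERK, was at 319 to 704 CPM in KO and 199.8, 153, 404 and 171 CPM in WT (1.23, SE 0.36, adjusted p = 0.105). Cd6, a relative of Cd5, was higher in every KO library, at 634 to 1126 CPM against 45.3, 332, 506 and 267 CPM in WT (1.46, SE 0.52, adjusted p = 0.176). The receptor chain gene Trac was at 4525 to 10822 CPM in KO and 6854, 4383, 2422 and 3516 CPM in WT (0.89, SE 0.33, adjusted p = 0.193). These 4 genes were chosen after their values were seen.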
